A study of Mus musculus with 4 samples.

Results

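Genes that mark macrophages and monocytes were followed in the lung of mice treated with amiodarone, dabigatran or both. They were taken from the deposited gene expression table by their symbols, and all 10 of 10 were found among its 17780 genes. Of these, 4 are shared by most macrophages (Adgre1, Aif1, Csf1r and Mertk), 3 mark alveolar macrophages (Siglecf, Itgax and Pparg), and 3 mark interstitial and monocyte-derived cells (Cx3cr1, Ccr2 and Plac8). The study gave amiodarone, an anti-arrhythmic drug, to mice as a model of drug-induced interstitial lung disease, and asked whether the thrombin inhibitor dabigatran alters the response. The 4 groups were vehicle (carboxymethylcellulose sodium salt at 0.5%), amiodarone (300 mg per kg per dose), dabigatran (60 mg per kg per dose), and both drugs at these doses (amiodarone + dabigatran), given by mouth 5 times per week for 4 weeks to male C57BL/6J mice that were 6 to 7 weeks old when obtained. The labels name the strain as C57BL/6 and give 28 days of treatment, whereas the methods place tissue collection on day 26. Each group is represented by 1 library of poly(A)+ RNA from the left lung, and the sources used here do not say whether a library holds the RNA of a single animal.

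Alveolar macrophages live in the airspaces, where they take up surfactant, and in the adult lung they largely renew themselves. Their identity is set by the cytokine GM-CSF through the nuclear receptor PPARγ, and in the mouse they carry Siglec-F and CD11c on the surface. Interstitial macrophages lie in the lung tissue. During inflammation, monocytes that carry CCR2 leave the blood and can become macrophages in both places, while patrolling monocytes carry CX3CR1 and little CCR2. None of these genes belongs to macrophages alone, since Itgax is also used by dendritic cells, Siglecf by eosinophils, Pparg by adipocytes, and Cx3cr1, Ccr2 and Plac8 by lymphocytes and natural killer cells.

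Values are given as FPKM, reads divided by transcript length and by the total reads of the library, which allows levels to be compared between genes of different length. Total estimated reads on genes ranged from 17498486 in the vehicle library to 18903401 in the amiodarone + dabigatran library, and the 10 genes with most reads took 8.37% to 10.4% of them. The interval given with a ratio is an exact 95% interval (Clopper-Pearson) from the reads of both libraries, and covers counting error only. With 1 library per group, a difference has no replicate check, no test across animals was possible, and a ratio compares libraries rather than treatments. A gene is called higher or lower here when its FPKM differed at least 1.5-fold, and counts of called genes are read beside the percentage called in the same direction among all genes that reached 1 FPKM in at least 1 of both libraries. In whole lung RNA, a change in the number of cells of a type and a change in the RNA per cell cannot be told apart.

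In the vehicle library Csf1r (38.67 FPKM) and Plac8 (38.57 FPKM) were the most abundant of the 10 genes, and their intervals overlap. Mertk, Itgax and Ccr2 followed at 10.12, 9.95 and 8.52 FPKM, then Pparg and Cx3cr1 at 7.10 and 6.85 FPKM, and Adgre1, Aif1 and Siglecf were lowest at 4.16, 3.56 and 2.01 FPKM. Neighbours in this order had overlapping 95% intervals, except across the steps from Plac8 to Mertk, from Cx3cr1 to Adgre1 and from Aif1 to Siglecf. All 10 genes passed the minimum of 1 FPKM in each of the 4 libraries. In the amiodarone library Plac8 stood first and Csf1r second, Itgax had moved above Mertk, and Siglecf was again last. In the amiodarone + dabigatran library Siglecf had moved from place 10 to place 8, above Cx3cr1 and Aif1.

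**Figure D1:**
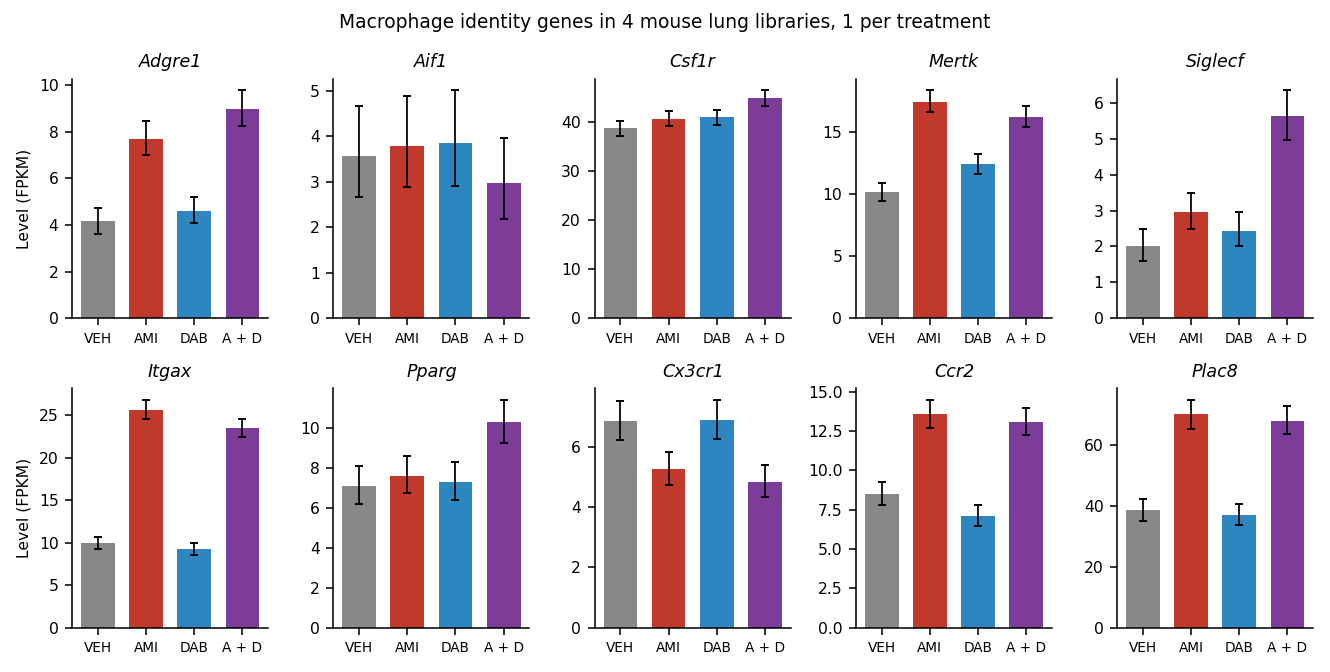
Level in FPKM (y axis, from 0, with its own scale in each panel) of the 10 genes in the vehicle (VEH), amiodarone (AMI), dabigatran (DAB) and amiodarone + dabigatran (A + D) libraries, 1 library per bar, with exact 95% Poisson intervals of the reads as error bars. Adgre1, Mertk, Siglecf, Itgax, Ccr2 and Plac8 stand higher with amiodarone than without it, beyond counting error, both in the absence and in the presence of dabigatran. Siglecf is highest with both drugs at 5.63 FPKM, and Cx3cr1 is lowest with both drugs at 4.84 FPKM.

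Sequence upstream of the start site is shown for Siglecf, the gene whose level with both drugs was farthest above that with amiodarone alone, and for Mertk, a shared marker that did not differ between these libraries beyond counting error. Both windows of 250 bases end where the gene begins. They come from RefSeq on GRCm38.p6, lie on the plus strand and are written 5′ to 3′. The bases after the window were found in a transcript of the gene from another annotation for Siglecf, but not for Mertk. The start of Mertk therefore rests on RefSeq alone. Capitals mark the letters GAGGAA or their complement TTCCTC, the core bound by PU.1, the Spi1 product, a transcription factor that macrophages need. Siglecf, chr7:43351091-43351340, had the complement once, 65 bases before its start, and Mertk, chr2:128698665-128698914, held neither form:
Siglecf: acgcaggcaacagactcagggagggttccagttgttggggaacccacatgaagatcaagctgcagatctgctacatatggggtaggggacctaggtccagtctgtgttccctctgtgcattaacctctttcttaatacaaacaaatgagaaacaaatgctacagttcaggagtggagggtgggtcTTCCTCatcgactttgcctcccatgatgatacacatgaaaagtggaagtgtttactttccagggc
Mertk: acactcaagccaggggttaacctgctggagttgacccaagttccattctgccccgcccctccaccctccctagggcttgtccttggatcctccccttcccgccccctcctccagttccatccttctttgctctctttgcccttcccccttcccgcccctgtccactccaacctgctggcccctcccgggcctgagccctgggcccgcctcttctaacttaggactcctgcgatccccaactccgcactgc

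Both strands were searched. Of the 11 start sites searched for 8 of the 10 genes, 4 had the letters within 250 bases (1 site each of Aif1, Siglecf, Pparg and Plac8). Among all 32851 windows of the same length, 23.3% had them, and among the 27025 genes of these windows 25.9% had them. Windows on chromosome 18, where Csf1r lies, were left out for the 10 genes but kept among all windows, and Adgre1 had no window. Of the genes with the letters, Siglecf and Pparg were higher with both drugs than with amiodarone beyond counting error. Aif1 and Plac8 lay within it. Adgre1 and Csf1r, for which no window was searched, were also higher beyond it. A relation between letters and levels was not tested. A match is a description of the letters and not of a bound site. The Spi1 transcript itself was at 29.20 FPKM after vehicle, 39.40 after amiodarone, 25.32 after dabigatran and 47.77 after both drugs.

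The first comparison asked what amiodarone was associated with in the absence of dabigatran. Of the 10, 5 passed the 1.5-fold threshold upward with amiodarone over vehicle (Itgax, Adgre1, Plac8, Mertk and Ccr2) and 0 were lower, while over all 13402 genes that reached 1 FPKM in one library or the other, 5.49% were higher and 7.22% lower. The median log2 ratio of the 10 genes was 0.62, against -0.05 over all those genes. By role, 2 of 4 shared genes, 1 of 3 alveolar genes and 2 of 3 interstitial and monocyte-derived genes were higher. Siglecf, at a ratio of 1.47, lay just under the threshold and passed it, at 1.52, when the libraries were rescaled by the median ratio over genes, which makes the count 6. Ccr2, at 1.60, lay just over it.

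The same contrast can be read in the presence of dabigatran, from the amiodarone + dabigatran and dabigatran libraries, which share no library with the first pair. There, 5 of the 10 genes passed the 1.5-fold threshold upward with amiodarone + dabigatran over dabigatran (Itgax, Siglecf, Adgre1, Ccr2 and Plac8) and 0 were lower, against 4.43% higher and 4.39% lower of 13379 genes. The median log2 ratio of the 10 genes was 0.69, against -0.01 over all genes. Adgre1, Itgax, Ccr2 and Plac8 were past the threshold in both pairs of libraries. Mertk passed it in the first pair and not the second, and Siglecf in the second and, without the rescaling, not the first. The difference between the pairs was not tested.

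**Figure D2:**
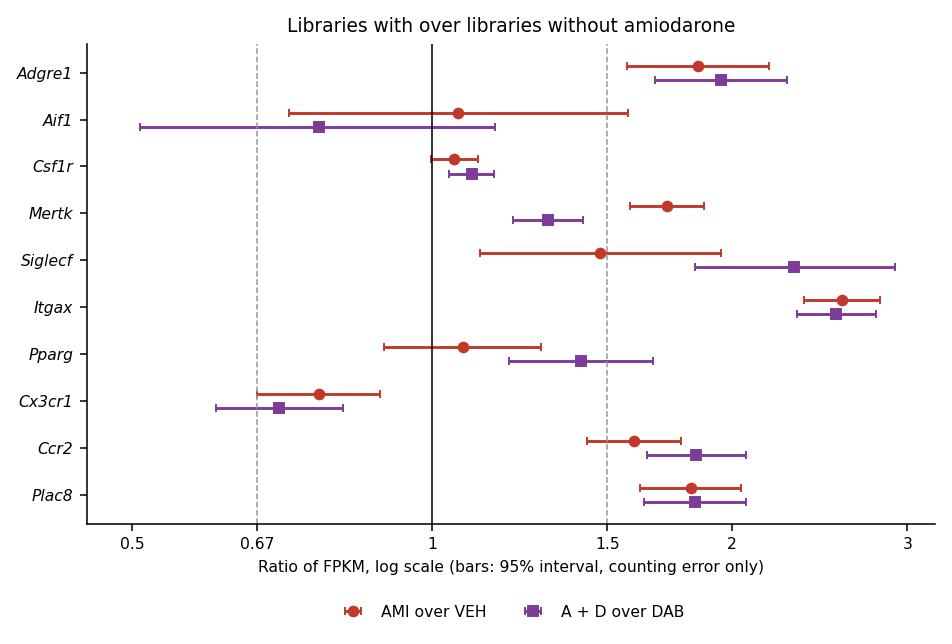
Ratio of FPKM (x axis, log scale) of libraries with amiodarone to libraries without it for the 10 genes, for amiodarone over vehicle (circles) and amiodarone + dabigatran over dabigatran (squares), with 95% intervals for counting error as bars and dashed lines at a 1.5-fold difference. Itgax lies farthest to the right in both pairs, at 2.58 and 2.54, Cx3cr1 lies to the left in both, at 0.769 and 0.702, and the wide intervals of Aif1 include 1.

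Among the shared genes, Adgre1, which encodes the surface receptor F4/80 and lies at 57358581 to 57483529 of chromosome 17 (GRCm38.p6, as for the genes that follow), had 4.16 FPKM after vehicle, 7.69 after amiodarone, 4.61 after dabigatran and 8.98 after both drugs. The libraries with amiodarone were higher than those without it whether or not dabigatran was given. The ratio was 1.85 (95% interval 1.57 to 2.18) for amiodarone over vehicle and 1.95 (1.68 to 2.27) for amiodarone + dabigatran over dabigatran. Adgre1 was also higher with both drugs than with amiodarone alone, at a ratio of 1.17 (1.03 to 1.33).

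Mertk, on chromosome 2 from 128698915 to 128803162, encodes a receptor tyrosine kinase with which macrophages take up dying cells. It had 10.12 FPKM after vehicle, 17.41 after amiodarone, 12.38 after dabigatran and 16.18 after both drugs. Here dabigatran alone was also above vehicle beyond counting error, at a ratio of 1.22 (1.11 to 1.34). Amiodarone over vehicle gave 1.72 (1.58 to 1.88) and amiodarone + dabigatran over dabigatran gave 1.31 (1.204 to 1.42).

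Csf1r encodes the receptor for CSF1 and IL-34, on which the survival of most macrophages depends, and lies on chromosome 18 from 61105572 to 61131139. Its level was 38.67 FPKM after vehicle, 40.69 after amiodarone, 40.92 after dabigatran and 44.86 after both drugs. With 2494 to 3111 reads it was the most precisely measured of the 10 genes and had the narrowest range, 1.16-fold from the lowest library to the highest. The ratio of amiodarone to vehicle was 1.05 (0.997 to 1.11), and that of amiodarone + dabigatran to dabigatran was 1.10 (1.04 to 1.15).

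Aif1, on chromosome 17 from 35170986 to 35176083, encodes Iba1, the calcium-binding protein against which the study's lung sections were stained. Its level was 3.56 FPKM after vehicle, 3.78 after amiodarone, 3.86 after dabigatran and 2.97 after both drugs, from 52, 59, 56 and 46 reads. None of the 4 comparisons differed beyond counting error. The interval for amiodarone over vehicle ran from 0.719 to 1.57 around a ratio of 1.06, so differences within these bounds were not detectable at this depth, while the ratio of Adgre1 in the same pair of libraries lies above them.

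Within a library, the ratio of 2 genes does not depend on how libraries are scaled. Adgre1 stood at 0.108 of Csf1r with vehicle (0.0934 to 0.123) and 0.113 with dabigatran (0.0987 to 0.128), but at 0.189 with amiodarone (0.171 to 0.209) and 0.200 with both drugs (0.182 to 0.220). The intervals of the libraries with amiodarone do not overlap those of the libraries without it. For Aif1 relative to Csf1r the values were 0.0921 after vehicle, 0.0929 after amiodarone, 0.0943 after dabigatran and 0.0662 after both drugs, and all 4 intervals overlap.

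Of the alveolar genes, Itgax showed the largest ratios of the 10 genes in both pairs of libraries that differ by amiodarone. It encodes the integrin CD11c on chromosome 7 from 128129526 to 128150657. The level was 9.95 FPKM after vehicle, 25.65 after amiodarone, 9.22 after dabigatran and 23.46 after both drugs, so the libraries with amiodarone stood clearly apart from those without. Amiodarone over vehicle gave a ratio of 2.58 (2.36 to 2.82) and amiodarone + dabigatran over dabigatran gave 2.54 (2.32 to 2.79). Its estimated reads were not whole numbers in 3 libraries, so a small part of them was divided among similar sequences.

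Siglecf, on chromosome 7 from 43351341 to 43359475, encodes the sialic acid receptor by which alveolar macrophages are told from other lung macrophages. Its level was 2.01 FPKM after vehicle, 2.96 after amiodarone, 2.44 after dabigatran and 5.63 after both drugs, from 86, 137, 107 and 263 reads. The library with both drugs stood apart from the other 3. Amiodarone over vehicle gave 1.47 (1.12 to 1.95), amiodarone + dabigatran over dabigatran gave 2.31 (1.84 to 2.92), and amiodarone + dabigatran over amiodarone gave 1.90 (1.54 to 2.36). Of 5 eosinophil markers in the table, Prg2 had 0 to 2 reads, Ccr3 0 to 3 reads and Il5ra 5.85 to 26 reads in the 4 libraries, the last with more reads in the libraries without amiodarone. Alox15 had 20 to 53 reads. The exception was Ear6, a ribonuclease gene with close copies, which had 4 reads after vehicle, 786 after amiodarone, 0 after dabigatran and 385 after both drugs.

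Pparg encodes the nuclear receptor PPARγ, on chromosome 6 from 115360879 to 115490404. It was at 7.10 FPKM after vehicle, 7.62 after amiodarone, 7.30 after dabigatran and 10.29 after both drugs. As with Siglecf, the library with both drugs was highest, at a ratio of 1.35 (1.15 to 1.59) to amiodarone and of 1.41 (1.19 to 1.67) to dabigatran, whereas amiodarone over vehicle lay within counting error at 1.07 (0.895 to 1.29). Adipocyte markers, whose cells also express Pparg, were lower with amiodarone over vehicle in all 4 of 4 genes above 1 FPKM (Adipoq, Plin1, Cfd and Adrb3). The share over all genes was 7.22%. In the pair with dabigatran all 4 of 4 were lower as well, against 4.39% of all genes. The summed level of the 5 listed adipocyte genes was 73.2 FPKM after vehicle, 26.3 after amiodarone, 119.9 after dabigatran and 47.8 after both drugs, and the part of these cells in the Pparg levels was not tested.

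The ratio of the alveolar genes to each other differed between libraries. Siglecf stood at 0.202 of Itgax with vehicle (0.160 to 0.253), 0.115 with amiodarone (0.0963 to 0.137), 0.265 with dabigatran (0.214 to 0.325) and 0.240 with both drugs (0.210 to 0.273). The amiodarone library was lowest, with an interval that overlaps none of the others. For Pparg relative to Itgax the values in the same order were 0.714, 0.297, 0.792 and 0.439, so that both libraries with amiodarone were lower than both without it.

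Among the interstitial and monocyte-derived genes, Ccr2 encodes the receptor for the monocyte attractant CCL2 and lies on chromosome 9 from 124101918 to 124109140. Its level was 8.52 FPKM after vehicle, 13.59 after amiodarone, 7.10 after dabigatran and 13.08 after both drugs. Both libraries with amiodarone were higher, at 1.60 (1.43 to 1.78) over vehicle and 1.84 (1.64 to 2.07) over dabigatran. Dabigatran alone was below vehicle, at a ratio of 0.833 (0.733 to 0.947). The estimated reads of Ccr2 were not whole in any of the 4 libraries, so some were divided among similar sequences.

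Plac8, on chromosome 5 from 100551589 to 100572253, encodes a small cysteine-rich protein and is abundant in monocytes. The level was 38.57 FPKM after vehicle, 70.10 after amiodarone, 37.09 after dabigatran and 68.11 after both drugs, again with both amiodarone libraries above the others. Ratios were 1.82 (1.62 to 2.04) over vehicle and 1.84 (1.63 to 2.07) over dabigatran. Plac8 kept nearly the same proportion to Ccr2 in all 4 libraries, from 4.53 to 5.22, with overlapping intervals.

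Cx3cr1, which encodes the fractalkine receptor on chromosome 9 from 120048683 to 120068296, was the member lower in both libraries with amiodarone beyond counting error. Its level was 6.85 FPKM after vehicle, 5.27 after amiodarone, 6.89 after dabigatran and 4.84 after both drugs. The ratio was 0.769 (0.667 to 0.887) for amiodarone over vehicle and 0.702 (0.606 to 0.813) for amiodarone + dabigatran over dabigatran, neither of which reached a 1.5-fold difference. Ccr2 relative to Cx3cr1 was accordingly 1.24 with vehicle (1.09 to 1.42) and 1.03 with dabigatran (0.902 to 1.18), against 2.58 with amiodarone (2.28 to 2.92) and 2.70 with both drugs (2.38 to 3.08).

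The remaining pairs of libraries show dabigatran without and with amiodarone. Against vehicle, 0 of the 10 genes were at least 1.5-fold higher with dabigatran alone and 0 were lower, where 1.45% and 1.52% of 13373 genes were. Of the 10, 7 differed by less than counting error, Mertk and Csf1r were slightly higher and Ccr2 was lower. The ratio of Csf1r was 1.06 (1.002 to 1.12).

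Between amiodarone + dabigatran and amiodarone, 1 of the 10 genes, Siglecf, was at least 1.5-fold higher and 0 were lower, against 2.46% higher and 2.07% lower of 13261 genes. Pparg, Adgre1 and Csf1r were also higher beyond counting error, the last at 1.10 (1.05 to 1.16). Itgax was the gene lower beyond counting error, at a ratio of 0.915 (0.857 to 0.976). Ccr2 at 0.962 (0.876 to 1.06), Plac8 at 0.972 (0.882 to 1.07), Mertk at 0.929 (0.863 to 1.0002) and Cx3cr1 at 0.918 (0.788 to 1.07) lay within it. The amiodarone library also enters the ratios over vehicle.

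**Figure D3:**
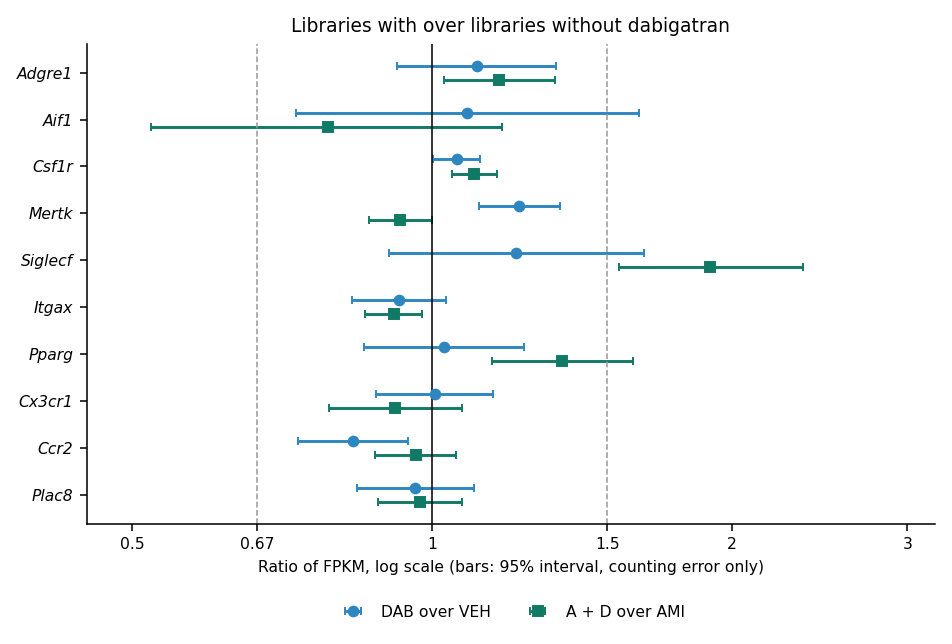
Ratio of FPKM (x axis, log scale) of libraries with dabigatran to libraries without it for the 10 genes, for dabigatran over vehicle (circles) and amiodarone + dabigatran over amiodarone (squares), with 95% intervals for counting error as bars and dashed lines at a 1.5-fold difference. Siglecf with both drugs over amiodarone, at 1.90, is the single point past the threshold.

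Further lists hold other genes of these cells, and their counts are set beside the same shares of all genes. These were 5.49% higher and 7.22% lower for amiodarone over vehicle, and 4.43% and 4.39% in the pair with dabigatran. They were 1.45% and 1.52% for dabigatran over vehicle, and 2.46% and 2.07% for both drugs over amiodarone. Of the 12 genes of macrophages and related phagocytes in general, all 12 passed the minimum, and 9 were at least 1.5-fold higher with amiodarone than with vehicle and 0 lower, at a median log2 ratio of 1.01. Fcgr1, which encodes the high-affinity IgG receptor, had 1.42 FPKM after vehicle, 6.21 after amiodarone, 1.80 after dabigatran and 4.25 after both drugs. Cd68, which encodes a lysosomal membrane protein, had 28.58, 77.16, 25.79 and 89.19 FPKM in the same order. Ctss, Lgals3, Tyrobp and Fcer1g had ratios of 2.94, 2.17, 2.12 and 2.06 for amiodarone over vehicle. In the pair with dabigatran 10 of the 12 were higher and 0 lower, at a median log2 ratio of 1.11, and between both drugs and amiodarone 0 were past the threshold in either direction. With dabigatran alone, again 0 were higher and 0 lower than with vehicle.

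Of 16 other alveolar macrophage genes, 8 were at least 1.5-fold higher and 3 lower with amiodarone than with vehicle (5.49% and 7.22% of all genes), at a median log2 ratio of 0.67. With dabigatran in both libraries 10 were higher and 2 lower, at 1.02. Chil3, a chitinase-like protein gene, had 90.27 FPKM after vehicle, 731.2 after amiodarone, 113.43 after dabigatran and 940.25 after both drugs. Atp6v0d2, a subunit of the vacuolar proton pump, had 7.44, 36.49, 8.43 and 40.10 FPKM, and F7 (coagulation factor VII) and Plet1 had ratios of 4.47 and 2.79 for amiodarone over vehicle. On the other side, the fatty acid binding protein gene Fabp1 had 44 reads after vehicle, 2 after amiodarone, 42 after dabigatran and 13 after both drugs. Ear1, a ribonuclease gene with close copies, had 22.30, 4.48, 24.43 and 10.31 FPKM.

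Between both drugs and amiodarone, 4 of the 16 alveolar macrophage genes were at least 1.5-fold higher and 0 lower, against 2.46% and 2.07% of all genes. They were Fabp1, Ear1, Ear2 and the scavenger receptor gene Marco, at ratios of 6.32 (1.43 to 57.7), 2.30 (1.67 to 3.22), 1.65 and 2.79 (2.32 to 3.36), and Ear2 and Marco are named after their values were seen. Marco was at 1.66 FPKM after vehicle, 4.39 after amiodarone, 4.41 after dabigatran and 12.23 after both drugs, and was the 1 gene of the list past the threshold with dabigatran alone. Like Siglecf and Pparg, it was highest in the library with both drugs. The same held for the shared genes Adgre1 and Csf1r, and in this list for genes such as Chil3, Atp6v0d2, F7 and Plet1.

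**Figure D4:**
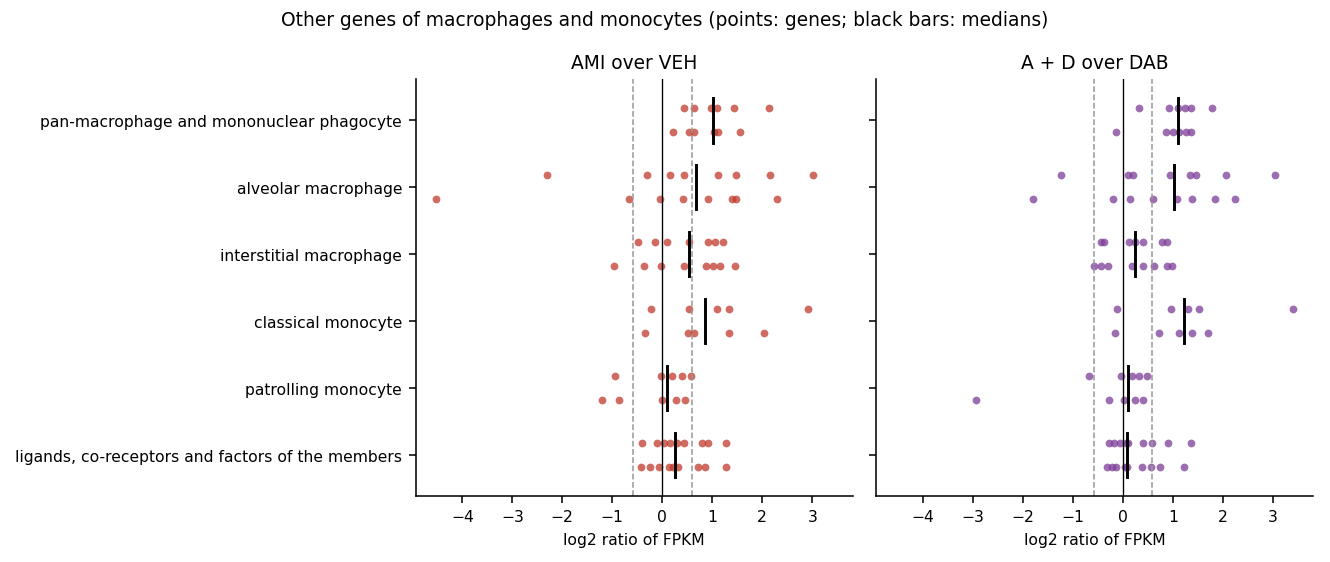
Log2 ratio of FPKM (x axis) for other genes of macrophages and monocytes by list (rows), for amiodarone over vehicle on the left and amiodarone + dabigatran over dabigatran on the right. Points are genes that reached 1 FPKM in one of the libraries and lay above 0 in both, black bars are medians and dashed lines mark a 1.5-fold difference, and the medians of the general, alveolar and classical monocyte lists lie right of 0.58 in both panels.

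Of 16 interstitial macrophage genes, 15 passed the minimum, and 7 were higher and 1 lower with amiodarone than with vehicle, at a median log2 ratio of 0.54. The complement genes C1qa, C1qb and C1qc had ratios of 2.08, 2.32 and 2.24, Ms4a7 had 2.74, and Lyve1, a hyaluronan receptor that lymphatic vessels also express, had 2.01. Tmem119 was lower, at 0.514, from 33.11 FPKM after vehicle to 17.03 after amiodarone. The part of other cells in its level was not tested. Against dabigatran, the library with both drugs had 5 genes higher and 0 lower, at 0.25, and between both drugs and amiodarone 0 were higher and 2 lower (Lyve1 and Ccl12, the latter from 24 and 10 reads and named after its values were seen). With dabigatran alone 1 was higher (Cd163) and 1 lower (Ccl12).

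Of 11 classical monocyte genes, 10 passed the minimum, and 6 were higher and 0 lower with amiodarone than with vehicle, at a median log2 ratio of 0.86. Ly6c2, the surface marker of these monocytes, had 28.22 FPKM after vehicle, 115 after amiodarone, 34.93 after dabigatran and 75.82 after both drugs, and its reads are hard to separate from those of its close copy. Clec4e, a receptor for fungal and mycobacterial glycolipids, had 0.46, 3.49, 0.30 and 3.19 FPKM. Ms4a4c, Mcemp1 and Ms4a6c had ratios of 2.53, 2.53 and 2.12 for amiodarone over vehicle. In the pair with dabigatran 8 were higher and 0 lower, at 1.21, and between both drugs and amiodarone 0 were higher and 1 lower (Ly6c2, at 0.659).

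Of 10 patrolling monocyte genes, 0 were higher and 3 lower with amiodarone than with vehicle (Nr4a1, Eno3 and Pou2f2; 5.49% and 7.22% of all genes), at a median log2 ratio of 0.09. Nr4a1, the transcription factor that these monocytes need and an immediate early gene in many cells, had 81.36 FPKM after vehicle, 35.50 after amiodarone, 115.06 after dabigatran and 15.02 after both drugs. Eno3 and Pou2f2 had ratios of 0.518 and 0.550. The other 7 were past the threshold in neither direction, from Adgre4 at 0.986 to Ace at 1.49, both named after their values were seen. Treml4 and Cd300e, at 1.32 and 1.36, lay within counting error. Whether other cells contributed to the levels of the 3 lower genes was not tested. In the pair with dabigatran 0 were higher and 2 lower, at 0.10. Between both drugs and amiodarone 1 was higher (Adgre4, at 1.56, named after its values were seen) and 1 lower (Nr4a1, at 0.423), against 2.46% and 2.07% of all genes.

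The last list holds ligands, partner receptors and transcription factors of the 10 genes. Of its 18 genes, 6 were at least 1.5-fold higher and 0 lower with amiodarone than with vehicle (5.49% and 7.22% of all genes), at a median log2 ratio of 0.26, and in the pair with dabigatran 4 were higher and 0 lower, at 0.09. Between both drugs and amiodarone 0 were higher and 2 lower (Ccl7 at 0.622, within counting error, and Ccl8 at 0.514), and with dabigatran alone 1 was higher (Csf2, at 2.04) and 1 lower (Ccl7, at 0.396). The Csf1r ligands Csf1 and Il34 had ratios of 1.23 (1.14 to 1.33) and 1.16 (0.995 to 1.35) for amiodarone over vehicle. Csf2, which encodes the GM-CSF that induces Pparg in alveolar macrophages, had 22 reads after vehicle, 56 after amiodarone, 44 after dabigatran and 62 after both drugs. Of its receptor chains, Csf2rb had 5.86, 10.65, 5.27 and 12.28 FPKM and Csf2ra had 24.45, 32.85, 22.86 and 38.39 FPKM in the same order.

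The Ccr2 ligands Ccl2 and Ccl7 were measured from few reads. Ccl2 had 20, 37, 14 and 28 reads with vehicle, amiodarone, dabigatran and both drugs, a ratio of 1.73 (0.976 to 3.14) for amiodarone over vehicle that lies within counting error. Ccl7 had 20, 35, 8 and 22 reads, at 1.63 (0.915 to 2.98). Ccl8 had 29, 75, 40 and 39 reads, so that amiodarone alone stood above the others, at 2.42 (1.56 to 3.85) over vehicle. Cx3cl1, the ligand of the Cx3cr1 product, was at 30.41, 25.55, 30.83 and 25.54 FPKM, lower in both libraries with amiodarone as Cx3cr1 was.

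The Mertk ligands Gas6 and Pros1 were abundant and had ratios of 0.960 and 1.02 for amiodarone over vehicle. The related receptors Axl and Tyro3 had 1.11 and 0.748. Klf4, a factor of monocyte differentiation that endothelium and epithelium also express, had 54.98 FPKM after vehicle, 103.24 after amiodarone, 68.49 after dabigatran and 71.14 after both drugs, with the amiodarone library again above the others. Irf8 was at 21.35, 16.14, 20.27 and 17.87 FPKM. Rxra, the partner of PPARγ, Nr1h3 and Tgfbr2 had ratios of 1.10, 1.24 and 0.929 for amiodarone over vehicle.

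Markers of other cells that can hold the 10 genes differed between the same libraries. Neutrophil genes were higher in 7 of 7 that passed the minimum with amiodarone over vehicle, at a median log2 ratio of 2.62, and in 6 of 6 in the pair with dabigatran, at 2.65. The summed level of the 10 listed neutrophil genes was 91.4 FPKM after vehicle, 596 after amiodarone, 68.8 after dabigatran and 431 after both drugs. Ly6g had 1, 22, 3 and 14 reads in this order, Mpo had 0 to 3 and Elane 0 or 1. Retnlg, S100a8, Mmp8, S100a9 and Cxcr2 had ratios of 11.9, 6.31, 6.15, 6.14 and 4.87 for amiodarone over vehicle. The part of neutrophils in the levels of Itgax and Plac8 was not tested.

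Dendritic cell genes, whose cells also express Itgax, were higher in 0 and lower in 3 of the 9 that passed the minimum with amiodarone over vehicle (Cd209a, Siglech and Clec10a, at 0.253, 0.361 and 0.490), at a median log2 ratio of -0.22. In the pair with dabigatran 1 was higher and 2 lower, at -0.13. Their summed level ran from 35.0 to 40.8 FPKM over the 4 libraries, and members differed in both directions (Clec9a was at 1.33 for amiodarone over vehicle, named after its values were seen). The part of dendritic cells in the Itgax levels was not tested.

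Among T and natural killer cell genes, which are relevant to Cx3cr1, Ccr2 and Plac8, 0 of 9 were higher and 1 lower (Cd8a, at 0.631) with amiodarone over vehicle, and 0 were higher and 2 lower in the pair with dabigatran. With dabigatran alone 3 of 9 were higher than with vehicle, against 1.45% of all genes. B cell genes were lower in 5 of 5 with amiodarone over vehicle, at a median log2 ratio of -1.57, and in 2 of 5 in the pair with dabigatran, at -0.52. Between both drugs and amiodarone 4 of 5 were higher, against 2.46% of all genes. The summed B cell level was 134.8 FPKM after vehicle, 46.3 after amiodarone, 113 after dabigatran and 83.45 after both drugs.

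Epithelial genes were past the threshold in 1 of 6 (Scgb1a1, lower at 0.596) with amiodarone over vehicle, and endothelial genes in 0 of 6. In the pair with dabigatran these were 0 of 6 and 1 of 6 (Kdr, lower at 0.633, named after its values were seen). Genes of cycling cells were higher in 2 of 5 with amiodarone (Birc5 and Top2a, at 2.10 and 1.52) and in 2 of 5 with dabigatran alone. The shares over all genes were 5.49% and 1.45%. Of 4 tested in the pair with dabigatran, 0 were past the threshold. Self-renewal and recruitment of macrophages cannot be told apart from these values.

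**Figure D5:**
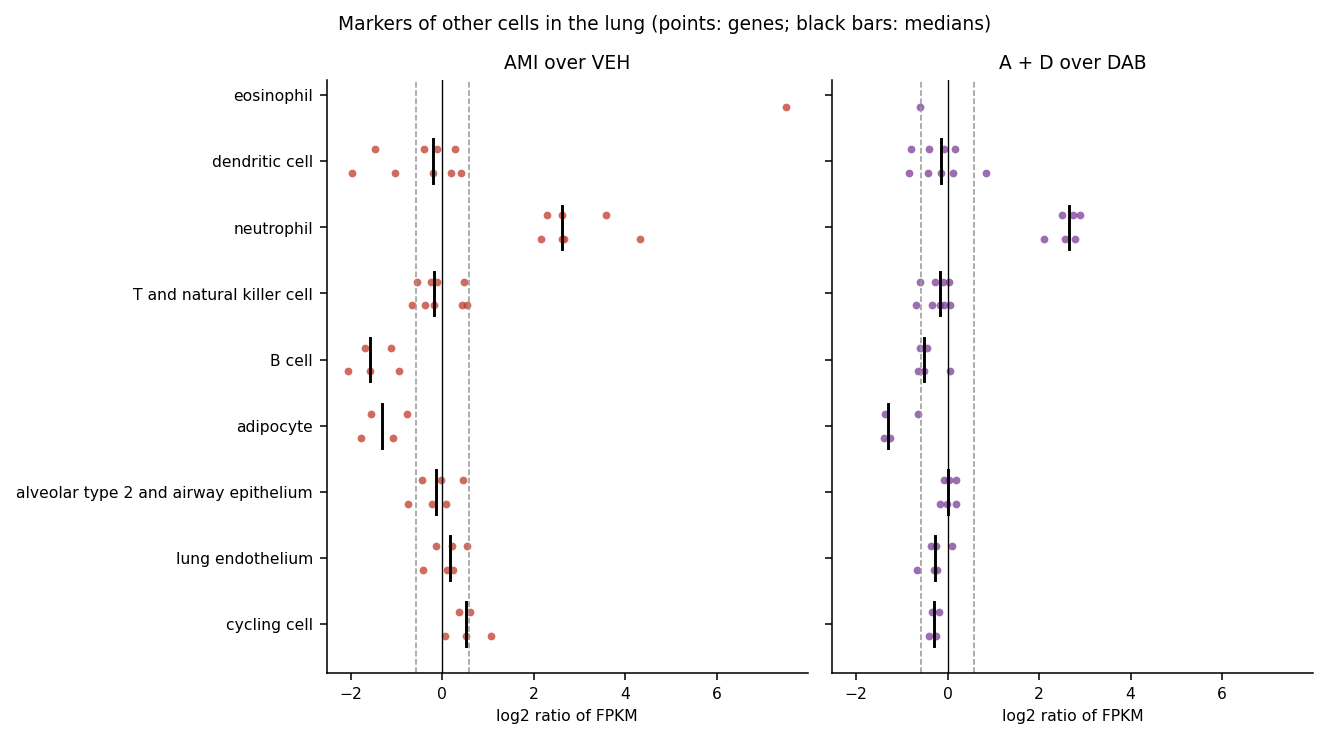
Log2 ratio of FPKM (x axis) for markers of other lung cells by list (rows), for amiodarone over vehicle on the left and amiodarone + dabigatran over dabigatran on the right. Points are genes that reached 1 FPKM in one of the libraries and lay above 0 in both, which leaves Ear6 out of the right panel, black bars are medians of lists with at least 3 such genes, and dashed lines mark a 1.5-fold difference. Neutrophil genes lie at the right, with medians of 2.62 and 2.65, and B cell and adipocyte genes at the left.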

How the data were processed

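Poly(A)+ RNA of the left lung was sequenced on the DNBseq platform. The authors mapped the reads with HISAT to the mouse genome GRCm38.p6 and with Bowtie2 to reference genes, and estimated expression with RSEM. The deposited table gives an estimated count of reads and a normalized value per gene and library. The deposited normalized values are read here as FPKM, on a linear scale, although no source used here names the unit. Reads per unit of value were a median of 1.07 times higher for amiodarone than for vehicle, the ratio of their total reads. That match concerns the scaling by total reads and not the division by transcript length. In the vehicle library Csf1r and Plac8 had values of 38.67 and 38.57 from 2494 and 440 reads. The values are therefore not scaled by total reads alone. Another 8 columns, means over a pair of groups made by the authors, were not used. Libraries were assigned to groups by their labels.

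Ratios of FPKM were computed without a pseudocount, and intervals came from the reads rounded to whole numbers (Python 3.11.15, SciPy 1.17.1). Fragments are not independent molecules, so intervals cover counting error only. A count of 0 allows up to 3 reads. The procedure was tested on simulated data. Coordinates and upstream sequences are from RefSeq on GRCm38.p6, in which 17669 of the 17780 gene identifiers were found. Of the 148 listed genes 146 were in the table, and Epx and Trac were not analysed here. The 10 genes and the 15 lists were chosen with earlier results of these data known. From each list the genes at least 1.5-fold different between amiodarone and vehicle were named, at most 6, largest first, and the ligands and factors were all named. Some genes that this rule would name are not reported here. Genes most like a member were not sought, since 4 libraries are too few. Alternatives were a 2-fold threshold, the FPKM + 1 scale, rescaling by the median ratio over 12728 genes, read counts per library total with and without the 10 most abundant genes, no filter, and a filter of 5 FPKM.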

Additional observations from a re-analysis of the deposited data

Results flagged for a closer look

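Aif1, Mertk and Cx3cr1 drew attention because their ratios pointed in opposite directions in pairs of libraries that share none, and these differences were not tested. For Aif1 the log2 ratio was 0.09 for amiodarone over vehicle and -0.38 for amiodarone + dabigatran over dabigatran, a difference of -0.46. The same difference of -0.46 separates its ratio for dabigatran with amiodarone, -0.35, from that without, 0.12. Both are a single quantity from the same 4 libraries, so their match is fixed by arithmetic and is no further observation. Each of these ratios of Aif1 lay within counting error. For Mertk the log2 ratio was 0.29 for dabigatran over vehicle and -0.11 for amiodarone + dabigatran over amiodarone, a difference of -0.40, and of these the first went beyond counting error. For Cx3cr1 the values were 0.01 and -0.12, a difference of -0.13, both within counting error. With 1 library per group no sample could be compared with others of its group.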

How the results depend on the processing

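All 160 recomputed ratios of the 10 genes stayed within their counting intervals under the FPKM + 1 scale, rescaling by the median ratio, and read counts scaled with and without the 10 most abundant genes. Of 56 recomputed counts of the 10 genes past the threshold, 53 were within 1.5 times the reported count. Among these, rescaling by the median ratio raised the count for amiodarone over vehicle from 5 to 6, with Siglecf at 1.52. The 3 others came with a 2-fold threshold, at which 1 gene was higher with amiodarone over vehicle, 2 with amiodarone + dabigatran over dabigatran, and 0 with amiodarone + dabigatran over amiodarone. Of 324 recomputed list medians (log2), 315 moved by no more than the median margin of the counting intervals of single genes in the list. That margin is not the counting error of the list median itself. For amiodarone over vehicle, the FPKM + 1 scale gave 2.04 for neutrophil, -1.33 for B cell and -0.85 for adipocyte genes, a filter of 5 FPKM gave 0.42 for alveolar macrophage genes, and no filter gave 0.63 for classical monocyte and -0.23 for epithelial genes. Rescaling by the median ratio gave -0.084 for epithelial genes there and 0.0083 for both drugs over amiodarone. The FPKM + 1 scale gave 0.98 for general macrophage genes with amiodarone + dabigatran over dabigatran. The cause of these moves beyond the fewer or added genes of each filter was not tested. No paired analysis was possible because each group has 1 library, and no replicate could be left out. Of the 10 genes, depth limits Aif1 (46 to 59 reads) and then Siglecf most, and several listed genes, such as Ly6g, Fabp1, Ccl12, Ccl2 and Ccl7, rest on fewer reads than Aif1.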
